A study of Mus musculus with 31 samples.

Results

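The 38 genes described here make or serve the autophagosome and the lysosome, and they were chosen by symbol from the 3 count tables of the study, which list 60172 genes in at least 1 table. All 38 were found in each table, and all 38 passed the filter on low counts in each. By role they were 2 transcription factors (Tfeb and Tfe3), 18 autophagosome genes, 3 cargo receptors (Sqstm1, Nbr1 and Optn), 4 lysosomal membrane proteins (Lamp1, Lamp2, Mcoln1 and Dram1), 9 lysosomal hydrolases (Ctsa, Ctsb, Ctsd, Ctsl, Ctsz, Hexa, Gla, Glb1 and Neu1) and 2 lipid-handling proteins of the lysosome (Npc2 and Psap). The study asked how the chemokine Cxcl5 shapes the metabolism of pancreatic cancer cells grown in 3 dimensions, and measured RNA in 31 samples of the mouse pancreatic adenocarcinoma line Panc02, in 11 groups and 3 experiments. In the conditioned-media experiment, spheroids of WT cells received control medium (Ctrl, n = 3), medium conditioned by untreated bone marrow macrophages (M0-CM, n = 3) or medium conditioned by macrophages treated with IFNγ and LPS (M1-CM, n = 3). In the culture experiment, wild-type (WT) and Cxcl5-/- cells were grown flat (2D) or as spheroids in Matrigel (3D), with 3 samples in each of the 4 groups. In the rescue experiment, all in 3D culture, WT cells (n = 2) and Cxcl5-/- cells (n = 2) were compared with Cxcl5-/- cells that overexpressed Hif1a (Hif1a OE, n = 3) or Myc (Myc OE, n = 3). Cxcl5 had been disrupted by lentiviral CRISPR/Cas9 with puromycin selection, and whether the knockout was 1 clone is not given in the sources used here. The rescue samples' labels give the line a number that runs on from sample to sample, while the study's methods name Panc02 alone. Hif1a, as a stabilised mutant, and Myc were delivered by retrovirus. The study's methods speak of biological replicates for its experiments in general, but neither they nor the labels say whether the sequenced samples of a group came from separate cultures, so p-values measure the spread between these samples, which may be technical.

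Autophagy encloses cytoplasm, organelles or protein aggregates in a membrane vesicle, the autophagosome, which fuses with the lysosome so that hydrolases can break down the contents. The Ulk1 and Atg13 kinase complex and the Becn1 and Atg14 lipid kinase complex start the membrane, Atg9a vesicles supply it, and Wipi proteins with the Atg3, Atg4a, Atg5, Atg7, Atg12 and Atg16l1 conjugation machinery attach Atg8-family proteins (Map1lc3a, Map1lc3b, Gabarap, Gabarapl1 and Gabarapl2) to it, where cargo receptors dock. Tfeb and Tfe3 are transcription factors that bind a short promoter element centred on CACGTG in many lysosomal genes, and pancreatic cancer is known for a high use of autophagy and lysosomes in its nutrient supply.

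The promoters were searched for this element because it is what the 2 transcription factors of the list bind. RefSeq windows on GRCm38.p6, from 250 bases before to 50 after each annotated start, were matched for 33 of the 38 genes. CACGTG, on either strand, lay in the window of 11 of the 33 genes (33.3%) against 8.09% of all 27025 genes with a window: Atg14, Atg3, Atg5, Atg7, Lamp1, Mcoln1, Ctsa, Ctsd, Ctsl, Gla and Glb1. The longer TCACGTGA, whose every match also holds a CACGTG, was found for 5 genes (15.2%) against 1.12% of all genes. The full palindrome of 10 bases, which adds G before and C after these, was found in 0 of the 33 genes and in 0.37% of all genes. For each gene with TCACGTGA 1 stretch is shown, although Ctsa and Gla hold 2 copies each. Stretches run 5′ to 3′ on the strand of the gene with that motif in capitals. Lamp1, the single window with 4 copies of CACGTG, is shown with those in capitals:
Atg3 (chr16:45158737-45158784, + strand): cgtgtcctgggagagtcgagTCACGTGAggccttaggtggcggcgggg
Mcoln1 (chr8:3500462-3500491, + strand): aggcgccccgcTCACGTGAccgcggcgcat
Ctsa (chr2:164833743-164833772, + strand): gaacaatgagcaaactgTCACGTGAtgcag
Ctsd (chr7:142387908-142387937, - strand): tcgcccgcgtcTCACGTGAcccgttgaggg
Gla (chrX:134601215-134601244, - strand): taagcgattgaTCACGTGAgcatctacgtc
Lamp1 (chr8:13159080-13159160, + strand): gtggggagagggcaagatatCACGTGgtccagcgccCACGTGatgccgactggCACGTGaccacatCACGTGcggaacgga
The 30-base stretches of Mcoln1, Ctsa, Ctsd and Gla lie wholly in annotated exons of GENCODE M21, while those of Atg3 and Lamp1 meet none. A match describes these letters in these windows and is not a measurement of binding.

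The libraries held between 41542533 and 78498230 counts. The targeted genes were checked first: Cxcl5 stood at 24.5 to 28.5 CPM (counts scaled to library size) in 3D WT and at 40.9 to 65.5 in the libraries labelled 3D Cxcl5-/-, against its label, whereas it was lower under the knockout label in 2D (32.7 to 37.4 against 45.6 to 49.1) and in the rescue experiment (36.6 and 40.2 against 64.2 and 67.7). In those same 3D libraries Hif1a (336 to 407 against 140.0 to 175 CPM) and Myc (33.9 to 36.9 against 9.12 to 11.4) were lower under the knockout label, as they were in the rescue experiment (Hif1a at 304 and 324 against 144 and 133, Myc at 49.3 and 46.1 against 22.3 and 20). Transcript level does not measure whether the edited gene still gives protein. Hif1a stood in Hif1a OE at between 243 and 296 CPM, above rescue Cxcl5-/- but under rescue WT. In Myc OE it stood at 241, 271 and 262, so Hif1a transcript level did not separate the 2 overexpression lines. Myc stood at between 397 and 548 in Myc OE and at 23, 26.8 and 25.6 in Hif1a OE. The epithelial markers Epcam and Cdh1 were under 1 CPM in each group, so the labelled epithelial origin rested on keratins such as Krt8. In 3D WT Krt8 stood at 569 ± 81.9 CPM (SD, n = 3). The macrophage markers Adgre1, Csf1r and Itgam were under 1 CPM in each group. The 8 macrophage markers summed to between 28 and 76.9 CPM. Group means were 19.3 to 46.7 for Cd14, 1.27 to 9.75 for Cd68 and 0.892 to 13.6 for Lyz2. Ptprc (1.73) and Mrc1 (1.24) passed 1 CPM in rescue WT alone. Of the fibroblast markers, Pdgfrb had group means of 55.1 to 207 CPM, while Thy1 was under 1 in each group. Scaling mattered in 3D: TMM factors were 0.82 to 0.912 in 3D WT and 1.012 to 1.225 in 3D Cxcl5-/-, and with plain library totals the median log2 difference of all genes between these groups moved from -0.04 to 0.35. All CPM below are TMM-scaled.

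Per kilobase of exon, the list was led by the same few genes in each group. In 2D WT, Ctsd, the aspartic protease of the lysosome, stood at 205 ± 13.5 CPM per kb and Psap, the precursor of the saposins that help sphingolipid breakdown, at 203 ± 17.3, 2 levels that did not differ beyond their spread. Lamp1, the abundant glycoprotein of the lysosomal membrane, followed at 161 ± 11.2 and Sqstm1, which encodes the cargo receptor p62, at 117 ± 9.43. The lowest levels in 2D WT were those of Ulk1 at 1.06 ± 0.152, Tfeb at 1.2 ± 0.239 and Dram1 at 1.38 ± 0.0623 CPM per kb. Across the 11 groups Ctsd ranked 1 to 2, Psap 1 to 3 and Tfeb 37 to 38 of the 38 genes, while Dram1, a p53-responsive membrane protein of the lysosome that promotes autophagy, ranged from 18 to 37.

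**Figure D1:**
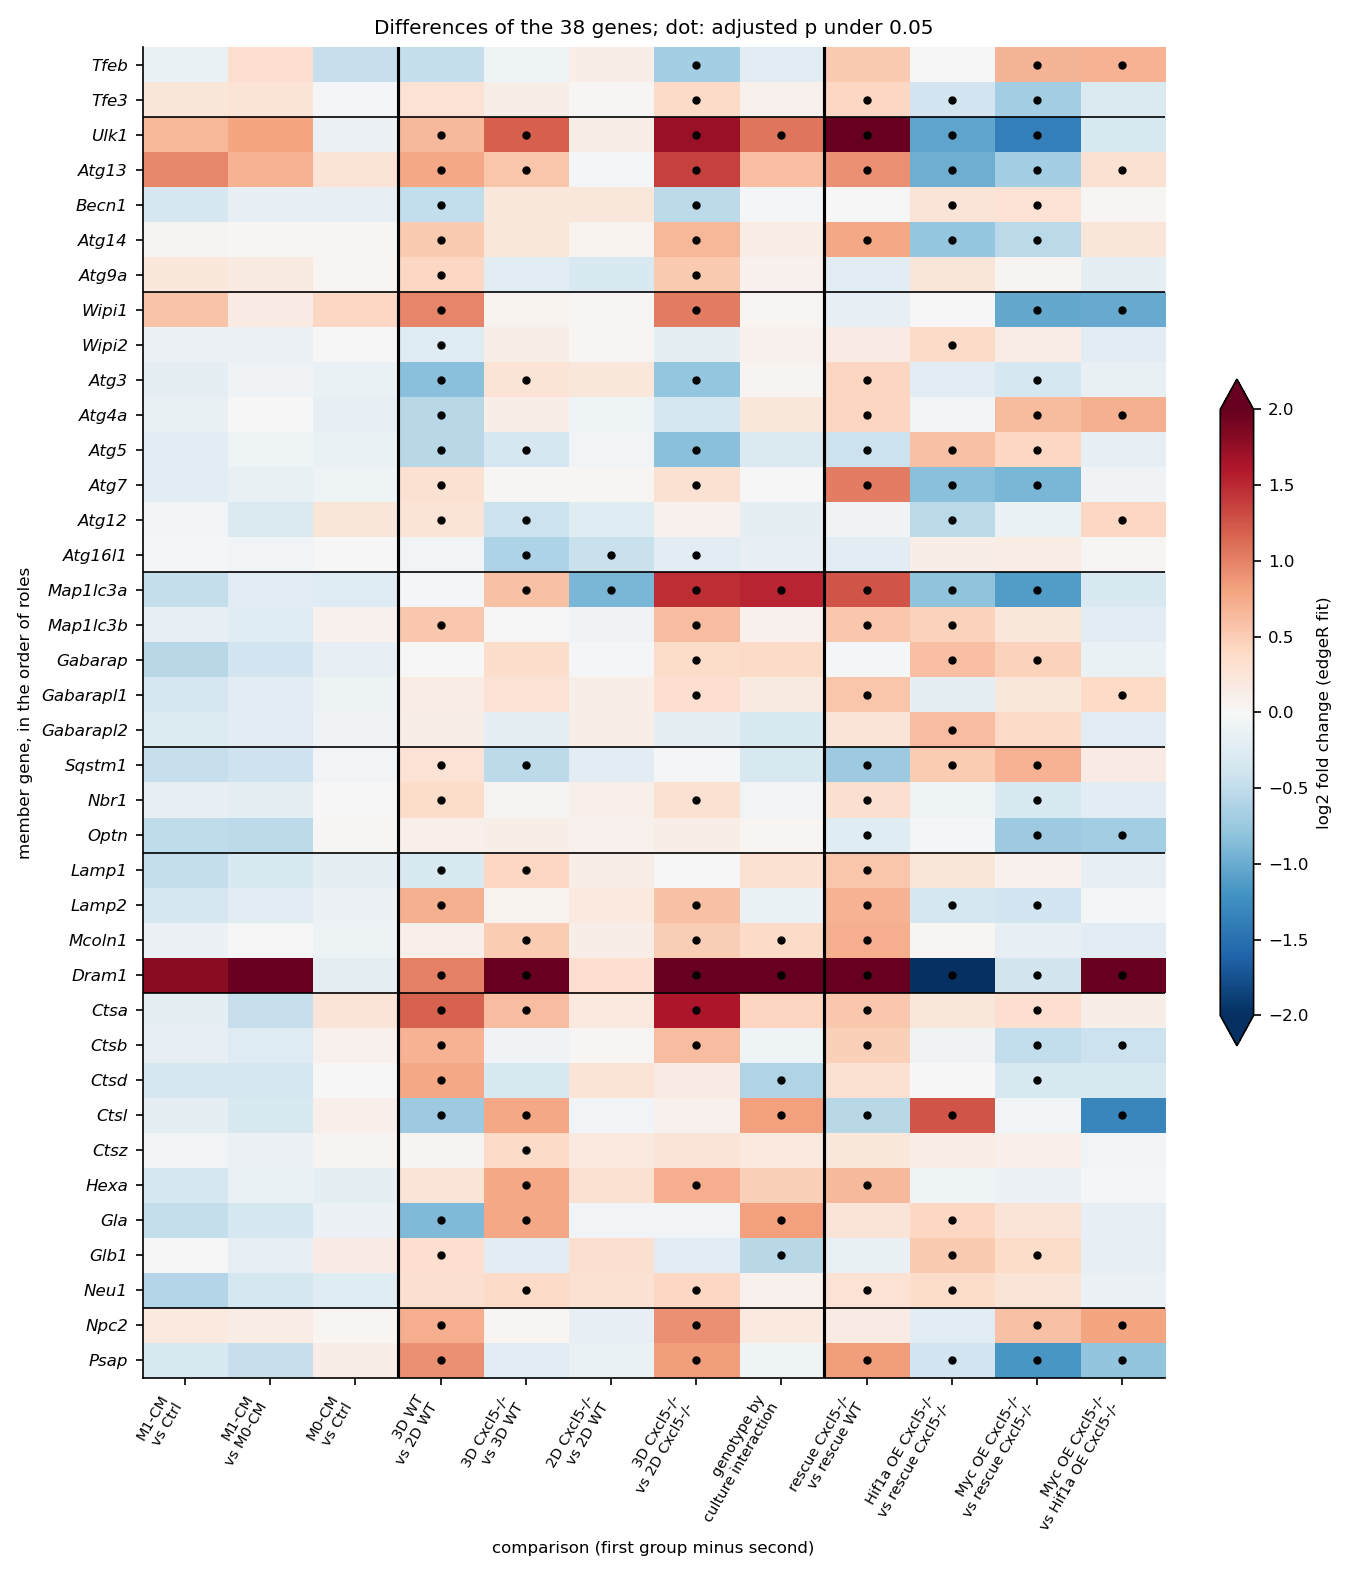
Heat map of the log2 difference (edgeR, TMM scaling) of each of the 38 genes, ordered by role, in each of the 12 comparisons; a dot marks an adjusted p under 0.05 over all genes tested and the colour scale stops at 2 in either direction. Dram1 changes colour most strongly, above 2 on the log2 scale for both Cxcl5-/- comparisons in 3D (2.39 and 2.44) and at -3.19 under Hif1a OE.

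Spheroid culture of WT cells raised more lysosomal genes than it lowered and split the autophagosome genes. Between 3D WT and 2D WT, 18 of the 38 genes were higher and 8 lower at an adjusted p under 0.05 (edgeR's quasi-likelihood test, Benjamini-Hochberg adjustment over all genes tested), where 22.2% of the 21367 genes tested were higher and 22.0% lower. The median log2 difference was 0.28 over the list and 0.00 over all genes. With library totals in place of TMM the list split into 10 higher and 10 lower, and the median of all genes moved to -0.21, so directions are relative to that centre. The ductal markers summed to 547 to 593 CPM in 2D WT and 854 to 1098 in 3D WT, and the fibroblast markers to 169.8 to 184 and 155 to 166. Krt7 (2.57 to 0.72 CPM) went against the ductal sum. Dcn (0.373 to 37.7), Lum (0.0818 to 6.87) and Col1a1 (0.784 to 6.39) went against the fibroblast sum. The part of the markers in the differences was not tested.

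Among the lysosomal genes, Ctsa, the serine carboxypeptidase that also protects Glb1 and Neu1 in a complex, stood at 55.7, 46 and 63.4 CPM in 2D WT and at 137, 108 and 128 in 3D WT, a log2 difference of 1.18 (SE 0.12, edgeR adjusted p = 3.51e-06). Psap went from 554, 509 and 604 to 1178, 928 and 1036 CPM, a difference of 0.91 (SE 0.10, adjusted p = 8.45e-06). In both genes each 3D sample lay above each 2D sample. Dram1 rose from 3.99, 4.29 and 4.34 to 7.93, 8.01 and 9.32 CPM (log2 difference 1.00, SE 0.12, adjusted p = 8.94e-06). The cysteine protease Ctsb rose from 304, 314 and 324 to 538, 458 and 522 CPM (0.69, adjusted p = 1.99e-05), and Ctsd from 479.7, 453 and 516 to 935, 707 and 821 (0.77, adjusted p = 2.10e-04). These groups did not overlap for any of the 3 genes. Lamp2, which has a part in fusion with the autophagosome, and Npc2, which hands cholesterol on inside the lysosome, rose by 0.71 and 0.72 on the log2 scale. Against this direction, Gla, the alpha-galactosidase, fell from 45.8, 42.9 and 47.6 to 25.6, 24.9 and 23.5 CPM (-0.88, SE 0.10, adjusted p = 8.94e-06). The cysteine protease Ctsl also fell, from 271, 257 and 256 to 164, 162 and 147 CPM (-0.73, SE 0.11, adjusted p = 7.68e-05), again without overlap. Ctsz, Hexa, Neu1 and Mcoln1, the calcium channel of the lysosome, did not pass the test. Hexa did so without 3D WT replicate 2 (0.38, adjusted p = 0.0245), as did Neu1 (0.47, adjusted p = 0.0127).

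Of the 18 autophagosome genes, 8 rose and 5 fell. Wipi1, a reader of the phosphoinositide on the forming membrane, rose from 8.34, 9.54 and 8.4 to 17.3, 17.1 and 17.5 CPM (0.98, SE 0.10, adjusted p = 4.68e-06). Atg13 rose by 0.77 (SE 0.16, adjusted p = 0.00147) and Map1lc3b, which encodes the widely used autophagosome marker LC3B, from 91.1, 89.4 and 99.1 to 149, 124 and 134 CPM (0.54, adjusted p = 2.73e-04). Both Wipi1 and Map1lc3b were higher in each 3D sample than in any 2D sample. The genes of membrane binding and conjugation were split, with Wipi1, Atg7 (0.30) and Atg12 (0.27) higher and Wipi2, Atg3, Atg4a and Atg5 lower. Atg3, the enzyme that passes Atg8 proteins to lipid, fell from 59.9, 58.1 and 63.5 to 31.4, 38.7 and 31.9 CPM (-0.83, SE 0.10, adjusted p = 1.25e-05), and Atg4a and Atg5 fell by 0.56 and 0.55 on the log2 scale. Becn1 fell by 0.49 (adjusted p = 4.06e-04). Ulk1, the initiating kinase, stood at 6.39, 8.04 and 6.29 CPM in 2D WT and at 12.5, 10.3 and 9.68 in 3D WT (0.65, SE 0.20, adjusted p = 0.0168), without overlap. Its call was lost without 2D WT replicate 1 (0.62, adjusted p = 0.054), 2D WT replicate 3 (0.61, 0.055) or 3D WT replicate 1 (0.55, 0.0656).

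Sqstm1 (393, 363 and 426 against 498, 438 and 511 CPM, 0.29, adjusted p = 0.0467) and Lamp1 (420.2, 405 and 463 against 379.9, 295 and 372 CPM, -0.30, adjusted p = 0.0327) sat close to the threshold. Sqstm1 lost its call without any of 4 single libraries, 2D WT replicates 1 and 2 and 3D WT replicates 1 and 3, at log2 differences of 0.26 to 0.31. Lamp1 lost its call without any 2D WT replicate or without 3D WT replicate 2 or 3, at -0.17 to -0.32. Calls for Atg14 (0.36 without 2D WT replicate 1), Atg7 (0.22 without 2D WT replicate 2), Wipi2 (-0.19 without 3D WT replicate 2) and Glb1 (0.26 without 3D WT replicate 1) were lost in the same way. The transcription factors did not pass the test: Tfeb was at 8.34, 5.91 and 6.09 CPM in 2D WT and 5.7, 3.32 and 5.55 in 3D WT (-0.48, adjusted p = 0.0851), and Tfe3 at 14.4, 13.4 and 14.6 against 17.4, 18.9 and 15.6 (0.29, adjusted p = 0.0537). Tfe3 passed it without 3D WT replicate 3 (0.39, adjusted p = 0.0287). Gabarapl1 was at 27.5, 23.3 and 30.9 against 33.5, 30.8 and 26.5 CPM, with overlapping groups.

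**Figure D2:**
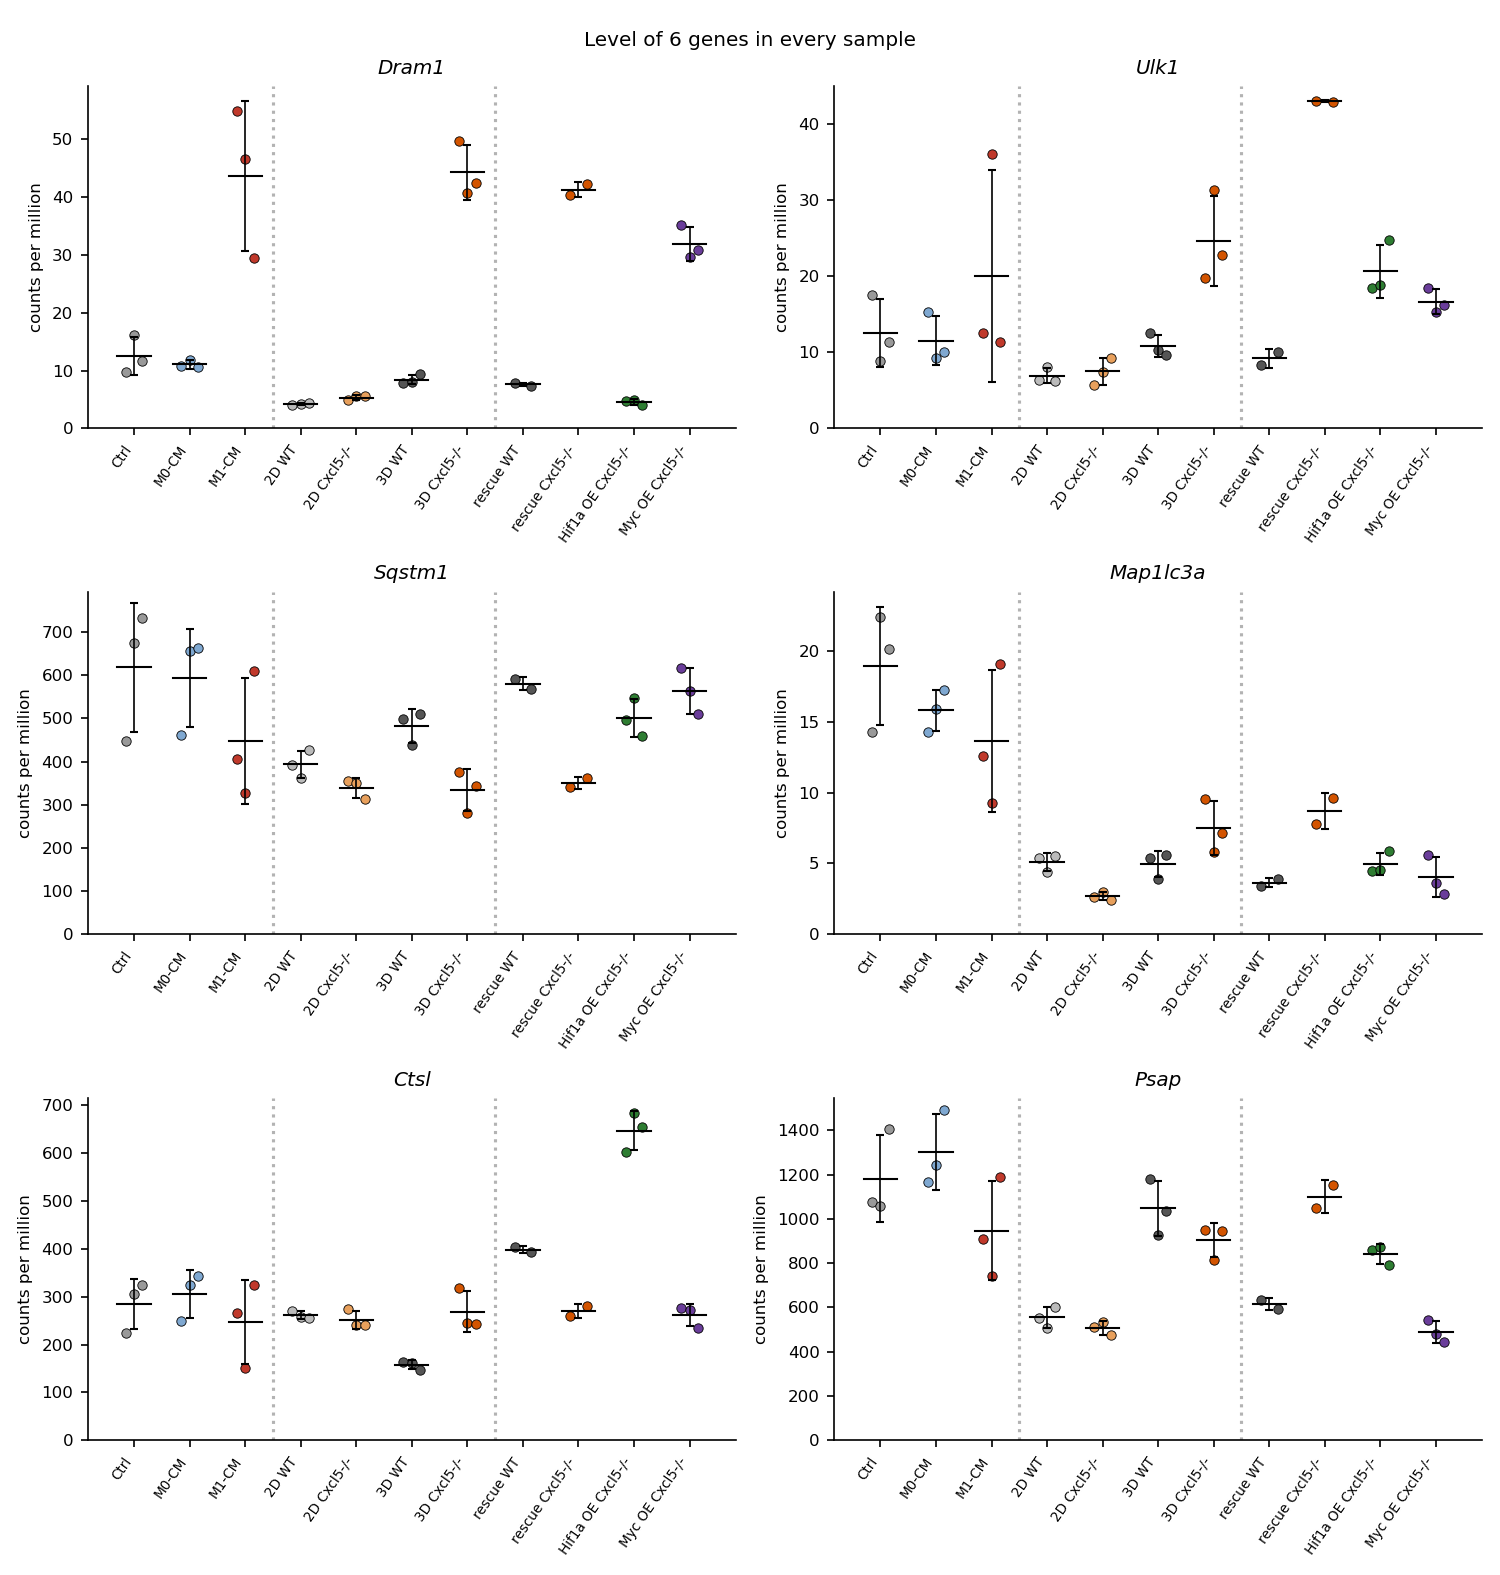
Level of 6 of the genes (Dram1, Ulk1, Sqstm1, Map1lc3a, Ctsl and Psap) in CPM after TMM scaling, 1 point per sample with the mean and SD of each of the 11 groups. Dram1 lies at 40.4 CPM or above in both 3D Cxcl5-/- groups and at 9.32 or below in both 3D WT groups.

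In 3D, the libraries labelled Cxcl5-/- had more Dram1 and Ulk1 transcript than WT and less Sqstm1, and 6 of the 9 hydrolases were higher, though not the abundant Ctsd and Ctsb. Of the 38 genes 13 were higher and 4 lower, where 19.7% of all genes tested were higher and 25.3% lower, and the median log2 difference was 0.12 against -0.04 over all genes. With library totals the split was 28 higher and 1 lower, and without 3D WT replicate 2 the count of lower genes was 7. Sums of cell markers moved with the genotype. The 8 ductal markers summed to 854 to 1098 CPM in 3D WT and 218 to 238 in 3D Cxcl5-/-, and 6 fibroblast markers to 155 to 166 against 395 to 452. In every group Krt8 and Krt18 made up most of the ductal sum. Here it fell through Krt8 (569 to 147 CPM), Krt18 (347 to 58.4) and Krt19 (43.7 to 0.132). Krt7 (0.72 to 3.15) and Sox9 (13.6 to 20.2) went the other way. The fibroblast sum rose through Pdgfra (21.3 to 214 CPM) and Pdgfrb (88.3 to 206). Dcn went from 37.7 to 2.82, Lum from 6.87 to 2.85 and Col1a1 from 6.39 to 4.21. Their part in the differences was not tested. In bulk RNA, fewer cells of a type and less RNA per cell cannot be told apart.

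Dram1 (ENSMUSG00000020057, chr10:88322804-88379080, - strand, GRCm38) stood at 7.93, 8.01 and 9.32 CPM in 3D WT and at 49.7, 40.7 and 42.5 in 3D Cxcl5-/-, a log2 difference of 2.39 (SE 0.12, edgeR adjusted p = 4.52e-09). Ulk1 (ENSMUSG00000029512, chr5:110784488-110810097, - strand) went from 12.5, 10.3 and 9.68 to 19.8, 31.3 and 22.8 CPM (1.19, SE 0.20, adjusted p = 2.65e-04). In both genes each Cxcl5-/- library lay above each WT library. Mcoln1 rose from 16.8, 15 and 15.6 to 23.6, 22.3 and 21.1 CPM (0.50, adjusted p = 4.33e-04) and Lamp1 from 379.9, 295 and 372 to 516, 429.7 and 450.2 (0.41, adjusted p = 0.00569), both without overlap.

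Among the 9 hydrolases 6 rose and 0 fell. Ctsl (ENSMUSG00000021477, chr13:64359337-64370890, - strand) rose from 164, 162 and 147 to 318, 246 and 243 CPM (0.77, SE 0.11, adjusted p = 5.70e-05). Hexa, the beta-hexosaminidase subunit that degrades gangliosides, rose from 109, 83.8 and 104 to 198, 145 and 162 CPM (0.77, SE 0.12, adjusted p = 1.80e-04), and Gla from 25.6, 24.9 and 23.5 to 48.8, 37 and 40.3 (0.77, SE 0.10, adjusted p = 3.71e-05). None of these 3 genes overlapped between genotypes. Ctsa rose by 0.62 (SE 0.12, adjusted p = 9.80e-04). Ctsz and Neu1, at 0.39 each, were called but lost the call without 3D WT replicate 2 (0.31 and 0.24) or 3D WT replicate 3 (0.32 and 0.38), and Neu1 also without 3D Cxcl5-/- replicate 1 (0.24). Ctsb (538, 458 and 522 against 471, 455 and 525 CPM) and Ctsd (935, 707 and 821 against 759.5, 544 and 673 CPM) did not pass the test, although Ctsd did without 3D WT replicate 2 (-0.44, adjusted p = 0.0159) or 3D Cxcl5-/- replicate 1 (-0.46, adjusted p = 0.00817). Psap, at 951, 815 and 944 CPM, was called lower without 3D WT replicate 2 alone (-0.32, adjusted p = 0.0289), as was Glb1 (-0.37, adjusted p = 0.00728).

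Sqstm1 (ENSMUSG00000015837, chr11:50199366-50210827, - strand) fell from 498, 438 and 511 to 376, 281 and 344 CPM (-0.53, SE 0.11, adjusted p = 0.00156), with each Cxcl5-/- library under each WT library. With library totals the difference was -0.15 and not called. Atg16l1, which places the conjugation complex on the membrane, fell from 68.9, 65.7 and 67.3 to 45, 42.4 and 45.4 CPM (-0.61, SE 0.07, adjusted p = 6.25e-06), and Atg12 by 0.43 (SE 0.08, adjusted p = 4.97e-04). Atg12 was at -0.05 with library totals. Atg5 was called lower at -0.34, but its samples overlapped, the call was lost without 3D WT replicate 3 (-0.26) or 3D Cxcl5-/- replicate 2 (-0.21) or 3 (-0.32), and library totals turned it to 0.04. Atg3 at 0.28 overlapped too, and lost its call without 3D WT replicate 1 or 3 or 3D Cxcl5-/- replicate 1 or 3 (0.19 to 0.23).

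Among the remaining initiation and Atg8-family genes, Atg13 and Map1lc3a were called. Atg13 rose from 13, 14.7 and 14.4 to 15.1, 22.5 and 24.2 CPM (0.56, SE 0.16, adjusted p = 0.0116), a call lost without 3D WT replicate 1 (0.48) or 3D Cxcl5-/- replicate 3 (0.40). Map1lc3a, a second LC3 gene, went from 5.41, 3.92 and 5.57 to 9.53, 5.79 and 7.16 CPM (0.59, SE 0.20, adjusted p = 0.027). That call was lost without 3D WT replicate 1 (0.63, adjusted p = 0.0504) or 2 (0.42, 0.131) or 3D Cxcl5-/- replicate 1 (0.35, 0.167) or 3 (0.60, 0.0568). Map1lc3b was at 149, 124 and 134 against 149, 126 and 135 CPM, a difference of 0.01 (SE 0.09). Gabarapl1 was at 33.5, 30.8 and 26.5 against 41.4, 33 and 36.7 CPM (0.29, adjusted p = 0.0666), Tfeb at 5.7, 3.32 and 5.55 against 4.89, 4.78 and 4.14, and Tfe3 at 17.4, 18.9 and 15.6 against 16.4, 20.9 and 18.9. Without 3D Cxcl5-/- replicate 2, Becn1 (0.33), Gabarap (0.50) and Gabarapl1 (0.41) were called higher, and without 3D Cxcl5-/- replicate 1 Gabarapl2 was called lower (-0.37). The groups overlapped for Map1lc3b, Gabarapl1, Tfeb and Tfe3.

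In 2D fewer genes of the list were called between the genotypes. Between 2D Cxcl5-/- and 2D WT 0 genes of the list were higher and 2 lower, where 3.86% of all genes were higher and 3.17% lower. At an unadjusted p under 0.05, 8 were higher and 4 lower. Atg16l1 fell from 66.6, 71.3 and 71.5 to 53, 50.7 and 49.7 CPM (-0.45, SE 0.07, adjusted p = 5.66e-04). Map1lc3a fell from 5.39, 4.37 and 5.55 to 2.65, 2.98 and 2.43 CPM (-0.92, SE 0.20, adjusted p = 0.012), without overlap, and lost the call without 2D WT replicate 1 or 3 or 2D Cxcl5-/- replicate 1 or 3 (-0.83 to -0.90). Dram1 stood at 3.99, 4.29 and 4.34 against 4.82, 5.57 and 5.56 CPM (0.34, SE 0.12, adjusted p = 0.112), and Ulk1 at 6.39, 8.04 and 6.29 against 5.76, 7.42 and 9.31. Dram1 did not overlap between genotypes and Ulk1 did. When the fit held these 2 groups alone, Becn1 (0.24), Atg3 (0.24), Ctsd (0.29), Hexa (0.31) and Glb1 (0.33) were also called higher.

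Whether the genotype difference itself differed between 3D and 2D was tested as an interaction over the 12 culture libraries. It was positive for 6 genes and negative for 2, where 11.1% and 16.1% of all genes were. With library totals it was positive for 19 genes and negative for 0. The values were 2.06 for Dram1 (SE 0.16, adjusted p = 1.89e-06), 1.52 for Map1lc3a (SE 0.28, adjusted p = 0.00163), 1.07 for Ulk1 (SE 0.28, adjusted p = 0.0122), 0.82 for Ctsl (SE 0.15, adjusted p = 0.00131) and 0.82 for Gla (SE 0.14, adjusted p = 9.44e-04). Map1lc3a thus combined a lower level in 2D Cxcl5-/- with a higher one in 3D Cxcl5-/-. Mcoln1, at 0.39 (adjusted p = 0.0344), lost the call in each fit without 1 library except that without 2D Cxcl5-/- replicate 1, at 0.30 to 0.41. Ctsd (-0.60, SE 0.18, adjusted p = 0.0237) and Glb1 (-0.55, SE 0.15, adjusted p = 0.0172) were the negative genes, and both lost the call without 2D Cxcl5-/- replicate 1 (-0.50 and -0.44) or 3D Cxcl5-/- replicate 2 (-0.45 and -0.47), leaving 0 negative genes. Without 3D Cxcl5-/- replicate 1 there were 6, among them Atg5 (-0.47), Atg12 (-0.29), Gabarapl2 (-0.51) and Sqstm1 (-0.46), and Atg13 was positive at 0.73. Ctsa was called positive without 2D WT replicate 2 (0.50) and Hexa without 3D Cxcl5-/- replicate 2 (0.58).

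Spheroid culture of Cxcl5-/- cells raised 21 of the 38 genes and lowered 5, where 28.7% of all genes were higher and 28.2% lower. The list median was 0.32 and that of all genes 0.11, or 0.26 with library totals. The ductal markers summed to 449.8 to 484 CPM in 2D and 218 to 238 in 3D, and the fibroblast markers to 171 to 184 and 395 to 452. Against the ductal sum, Sox9 rose from 3.02 to 20.2 CPM and Muc1 from 0.279 to 1.37. The part of the markers in the differences was not tested. Of the 18 genes that rose with 3D culture in WT, 14 also rose in Cxcl5-/-, and of the 8 that fell, Becn1, Atg3 and Atg5 fell in both. Over all genes 61.1% of those that rose in WT also rose in Cxcl5-/-, and 75.3% of those that fell also fell. The values were 3.06 for Dram1 (SE 0.12, adjusted p = 4.73e-10), 1.72 for Ulk1 (SE 0.20, adjusted p = 6.80e-06), 1.61 for Ctsa (SE 0.12, adjusted p = 1.31e-07), 1.48 for Map1lc3a (SE 0.20, adjusted p = 3.25e-05), 1.37 for Atg13 (SE 0.16, adjusted p = 7.93e-06) and 1.02 for Wipi1 (adjusted p = 2.11e-06). Dram1 thus went from 4.82, 5.57 and 5.56 CPM in 2D Cxcl5-/- to 40.7 or more in 3D, and Ulk1 from at most 9.31 to at least 19.8. Ctsa went from 63.1, 66.8 and 58 to 206, 177 and 190.4 CPM, and Atg13 from 7.28, 7.77 and 8.92 to 15.1, 22.5 and 24.2. None of these 4 genes overlapped between the cultures. Tfeb, at 8.49, 6.18 and 7.52 CPM in 2D and 4.89, 4.78 and 4.14 in 3D, was lower in 3D (-0.68, SE 0.21, adjusted p = 0.0133), although not without 2D Cxcl5-/- replicate 1 (-0.56, adjusted p = 0.0659). Without that same library the count of lower genes was 3. The call for Tfe3 (0.38) was lost without 2D Cxcl5-/- replicate 1 (0.33) or 3D Cxcl5-/- replicate 2 (0.31).

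The rescue experiment held a second, separate comparison of 3D Cxcl5-/- with 3D WT, with 2 libraries a group. Again Dram1 and Ulk1 rose most and Sqstm1 fell. Of the 38 genes 20 were higher and 4 lower, where 17.6% of the 28730 genes tested were higher and 24.3% lower, and the median was 0.36 against -0.30 over all genes. Ductal markers summed to 857 and 904 CPM in rescue WT and to 288 and 303 in rescue Cxcl5-/-, and fibroblast markers to 74.9 and 79.3 against 458 and 464. The ductal sum fell through Krt8 (471 to 174 CPM) and Krt18 (361 to 89), while Krt7 (1.32 to 1.57) and Muc1 (1.02 to 1.13) did not fall. The rescue WT libraries also held more genes with at least 20 counts, 20654 to 20828 against 16983 to 18135 in the other rescue libraries. The part of these differences in the results was not tested.

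Dram1 rose from 7.83 and 7.41 CPM in rescue WT to 40.4 and 42.2 in rescue Cxcl5-/- (2.44, SE 0.13, edgeR adjusted p = 2.27e-07), and Ulk1 from 8.34 and 10.1 to 43.1 and 42.9 (2.22, SE 0.17, adjusted p = 2.07e-06). Map1lc3a rose from 3.44 and 3.87 to 7.78 and 9.62 CPM (1.25, SE 0.29, adjusted p = 0.00616). Atg7, the enzyme that activates both conjugation reactions, rose from 22 and 20.8 to 42.7 and 44.4 (1.03, SE 0.10, adjusted p = 1.04e-05). Atg13 rose from 15.5 and 13.7 to 27 and 28.2 CPM (0.92, SE 0.11, adjusted p = 6.81e-05) and Psap from 635 and 595 to 1047 and 1154 (0.84, SE 0.11, adjusted p = 1.56e-04). For these 6 genes, named for their large called differences, both Cxcl5-/- libraries lay above both WT libraries, which adds no separate support. Map1lc3b (95.9 and 96.1 against 142 and 138 CPM, 0.54, adjusted p = 0.00356) and Gabarapl1 (32.5 and 32.7 against 44 and 51.3 CPM, 0.55, adjusted p = 0.00184) rose as well.

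All 4 lysosomal membrane genes rose: Mcoln1 by 0.73, Lamp2 by 0.70 and Lamp1 by 0.55 on the log2 scale beside Dram1, with Lamp1 at 342 and 324 against 492 and 485 CPM. Of the hydrolases, Hexa (0.65, SE 0.11), Ctsa (0.54, SE 0.10), Ctsb (421 and 395 against 559 and 571 CPM, 0.47) and Neu1 (0.29) rose. Ctsl fell from 403 and 393 to 259.5 and 281 CPM (-0.56, SE 0.11, adjusted p = 0.0016), without overlap. Ctsd was at 609 and 559 against 683 and 761 CPM (0.31, adjusted p = 0.0682). Sqstm1 fell from 591 and 569 to 341 and 361 CPM (-0.73, SE 0.11, adjusted p = 4.47e-04), again without overlap. Tfe3, at 21.4 and 16.4 against 25 and 25.2 CPM, was called higher (0.41, adjusted p = 0.0355), but not without rescue WT replicate 2 (0.23) or rescue Cxcl5-/- replicate 1 (0.41, adjusted p = 0.125) or 2 (0.40, adjusted p = 0.135). Tfeb was at 3.02 and 3.39 against 5.4 and 3.82 CPM (0.52, adjusted p = 0.0884), without overlap.

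Nbr1 (0.32), Optn (-0.25) and Neu1 lost their calls without any 1 of the 4 libraries. Atg14 (0.66), Atg3 (0.32) and Atg4a (0.37) lost theirs without rescue WT replicate 2, Atg3 also without rescue Cxcl5-/- replicate 2 (0.36) and Atg4a without rescue Cxcl5-/- replicate 1 (0.34). Atg5, called lower at -0.43, was not called without either rescue WT replicate (-0.43 and -0.42) or rescue Cxcl5-/- replicate 2 (-0.33). The count of lower genes was 2 without any of the last 3 libraries.

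Side by side, the 2 genotype comparisons in 3D, which share no libraries, called 10 genes higher in both (Dram1, Ulk1, Atg13, Atg3, Map1lc3a, Lamp1, Mcoln1, Ctsa, Hexa and Neu1) and 2 lower in both (Sqstm1 and Atg5). Ctsl was the single gene called in opposite directions, 0.77 in the culture experiment and -0.56 in the rescue experiment. Its level was similar in the Cxcl5-/- libraries of both (243 to 318 and 259.5 to 281 CPM) and differed between the WT libraries (147 to 164 against 393 and 403), which were scaled in separate tables. Over the 21058 genes tested in both tables, 13.9% were higher in both and 15.3% lower in both. Another 10 genes of the list were called higher in the rescue experiment alone, and 10 were called in neither. Over all genes, 58.4% of those higher in the rescue experiment were also higher in the culture experiment. The shares of all genes called in opposite directions or in neither were not counted.

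**Figure D3:**
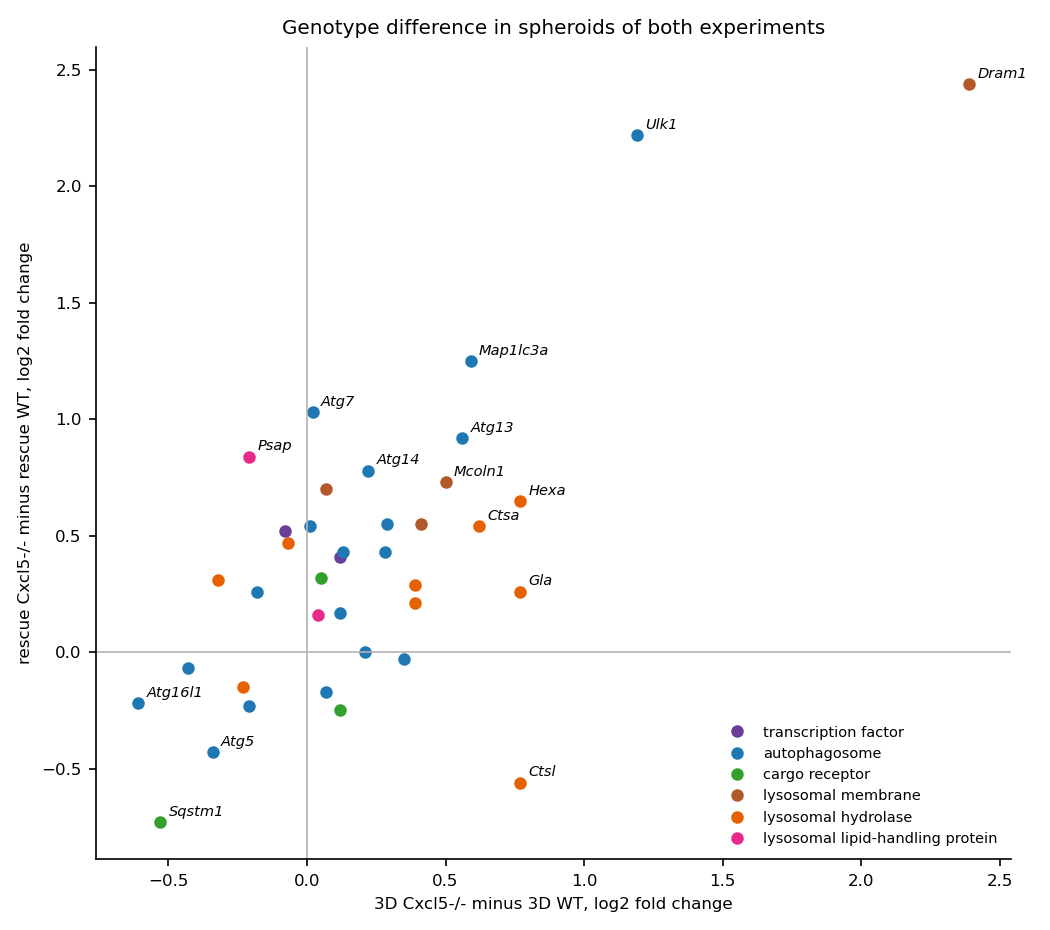
Log2 difference of each of the 38 genes between Cxcl5-/- and WT in 3D, with the culture experiment (3 against 3 libraries) on the horizontal axis and the rescue experiment (2 against 2) on the vertical axis. Dram1 (2.39 and 2.44) and Ulk1 (1.19 and 2.22) lie at the upper right and Ctsl (0.77 and -0.56), the one gene called in both with opposite signs, lies in the lower right quadrant.

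In Hif1a OE, Dram1 was lower and Ctsl and Sqstm1 were higher than in rescue Cxcl5-/-. The study's methods name no empty-vector line, so the transgene cannot be told apart from viral delivery and selection in either overexpression line. Against rescue Cxcl5-/-, 11 genes were higher and 10 lower, where 20.5% of all genes were higher and 15.0% lower. The list median was -0.01 and that of all genes 0.16, and with library totals the split was 6 higher and 16 lower with the median of all genes at 0.00. Dram1 fell from 40.4 and 42.2 to 4.78, 4.82 and 3.98 CPM (-3.19, SE 0.12, adjusted p = 3.82e-08), under the 7.83 and 7.41 of rescue WT. Ctsl rose from 259.5 and 281 to 603, 684 and 654 CPM (1.26, SE 0.10, adjusted p = 3.77e-06), above the 403 and 393 of rescue WT. Whether Hif1a OE differed from rescue WT was not tested for either gene. The ductal markers summed to 707 to 839 CPM in Hif1a OE and the fibroblast markers to 133 to 173. Sox9, a ductal marker, stood at 16.6 CPM in Hif1a OE against 29.4 in rescue Cxcl5-/-. The part of the markers in these results was not tested.

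Of the 5 initiation genes 3 fell with Hif1a OE, Becn1 rose by 0.25 on the log2 scale and Atg9a was not called. The call for Becn1 was lost without either rescue Cxcl5-/- replicate (0.28 and 0.25) or Hif1a OE replicate 1 (0.25) or 2 (0.23). Ulk1 went from 43.1 and 42.9 to 18.4, 18.8 and 24.7 CPM (-1.06, SE 0.14, adjusted p = 1.27e-04), Atg13 from 27 and 28.2 to 13.8, 15 and 13.1 (-0.98, SE 0.10, adjusted p = 1.87e-05) and Atg14 by 0.78 (SE 0.17, adjusted p = 0.00409). Atg7 fell from 42.7 and 44.4 to 22.7, 24.7 and 25.5 CPM (-0.84, SE 0.08, adjusted p = 1.83e-05). Ulk1, Atg13 and Atg7 did not overlap between the groups. Map1lc3a was called at -0.81 (7.78 and 9.62 against 4.47, 4.53 and 5.87 CPM, adjusted p = 0.0303), a call lost without rescue Cxcl5-/- replicate 1 (-0.94) or 2 (-0.64) or Hif1a OE replicate 1 or 2 (-0.74 each).

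The Atg8-family genes apart from Map1lc3a went up or did not pass. Gabarap (173 and 181 against 259, 302 and 244 CPM, 0.60, adjusted p = 0.00643) and Gabarapl2 (48.8 and 50.2 against 72.1, 91.8 and 64.1 CPM, 0.62, adjusted p = 0.00725) rose, as did Map1lc3b (142 and 138 against 189.7, 212 and 175 CPM, 0.46, adjusted p = 0.00558). All Hif1a OE libraries were above both Cxcl5-/- libraries for these 3 genes. Without rescue Cxcl5-/- replicate 1, Gabarap (0.58, adjusted p = 0.0537) and Gabarapl2 (0.62, 0.0506) lost the call, and without replicate 2 Map1lc3b did (0.45, 0.0516). Sqstm1 rose from 341 and 361 to 497, 547 and 459 CPM (0.51, SE 0.11, adjusted p = 0.00255) and Atg5 by 0.59 (SE 0.13, adjusted p = 0.00318). Of the 9 hydrolases 4 rose and 0 fell: Ctsl, Glb1 (0.52, SE 0.11), Gla (0.41) and Neu1 (0.36). Gla lost the call without rescue Cxcl5-/- replicate 1 (0.47) or 2 (0.39) and Neu1 without replicate 1 (0.32). Ctsb (518, 589 and 505 CPM), Ctsd (698, 789 and 665) and Lamp1 (561, 642 and 528) did not pass the test against rescue Cxcl5-/-, at -0.07, -0.01 and 0.24. Lamp2 (-0.35), Psap (-0.39) and Tfe3 (-0.39) were called lower, without rescue Cxcl5-/- replicate 2 none of the 3 was (-0.32, -0.30 and -0.37), and Tfe3 also lost the call without rescue Cxcl5-/- replicate 1 (-0.38) or Hif1a OE replicate 1 (-0.34) or 2 (-0.36). Without rescue Cxcl5-/- replicate 1 the count of higher genes fell to 6, and without replicate 2 the counts were 7 higher and 6 lower.

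In Myc OE more of the list was lower than higher, and Dram1 stood close to the Cxcl5-/- level. Against rescue Cxcl5-/-, 9 genes were higher and 15 lower, where 21.6% of all genes were higher and 18.0% lower. The list median was 0.00 and that of all genes 0.11, and library totals gave 2 higher and 21 lower with the median of all genes at -0.11. The ductal markers summed to 268 to 313 CPM in Myc OE, against 288 to 303 in rescue Cxcl5-/-, and Krt7 rose from 1.57 to 3.49. The fibroblast markers summed to 312 to 343 against 458 to 464, and Pdgfra (110.5 to 149 CPM) went against that sum. The part of the markers in these results was not tested. Ulk1 fell from 43.1 and 42.9 to 18.5, 15.3 and 16.2 CPM (-1.37, SE 0.14, adjusted p = 1.57e-05) and Psap from 1047 and 1154 to 542, 478 and 443 (-1.17, SE 0.10, adjusted p = 4.43e-06). Wipi1 fell from 29.5 and 23.5 to 11.4, 15.2 and 12.7 CPM (-1.02, SE 0.14, adjusted p = 1.62e-04). Atg7 fell from 42.7 and 44.4 to 22.8, 24.1 and 22.4 (-0.92, SE 0.09, adjusted p = 7.35e-06). In these 4 genes each Myc OE library lay under both Cxcl5-/- libraries. Map1lc3a fell by 1.11 to 5.63, 3.63 and 2.87 CPM (SE 0.26, adjusted p = 0.00532), but was not called without rescue Cxcl5-/- replicate 2 (-0.94, adjusted p = 0.0606). Optn, a receptor for damaged mitochondria and bacteria, fell from 25.4 and 24.4 to 15.3, 14.9 and 14.9 CPM (-0.73, SE 0.08, adjusted p = 3.47e-05).

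Sqstm1 rose to 617, 564 and 511 CPM (0.69, SE 0.11, adjusted p = 3.07e-04), each above both Cxcl5-/- libraries. Atg4a, a protease that trims Atg8 proteins, rose from 20.8 and 18.5 to 28.9, 31.1 and 32 CPM (0.64, SE 0.11, adjusted p = 4.85e-04), and Npc2 from 216 and 240.1 to 376, 339.8 and 304 (0.58, SE 0.12, adjusted p = 0.00298). Tfeb was at 5.4 and 3.82 against 8.82, 6.89 and 6.49 CPM and was called higher (0.68, SE 0.21, adjusted p = 0.0245), although not without rescue Cxcl5-/- replicate 2 (0.46) or Myc OE replicate 1 (0.54). Tfe3 fell from 25 and 25.2 to 16.1, 15.1 and 15.8 CPM (-0.68, SE 0.12, adjusted p = 0.00101), so the 2 transcription factors were called in opposite directions. Ctsb fell from 559 and 571 to 414, 412 and 373 CPM (-0.50, SE 0.09, adjusted p = 0.0011), while Ctsl (277, 273 and 235 CPM), Lamp1 (565, 511 and 470.3), Map1lc3b (179, 168 and 145) and Gabarapl1 (59.4, 51.9 and 56.1) did not pass the test. Map1lc3b passed it without Myc OE replicate 3 (0.31, adjusted p = 0.0286).

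Dram1 was at 35.1, 29.6 and 30.9 CPM in Myc OE against 40.4 and 42.2 (-0.37, SE 0.11, adjusted p = 0.0185), a call lost without rescue Cxcl5-/- replicate 1 (-0.39) or 2 (-0.33) or Myc OE replicate 2 (-0.31) or 3 (-0.35). Ctsd, called at -0.32 (649, 567 and 518 against 683 and 761 CPM), lost it without either rescue Cxcl5-/- replicate (-0.38 and -0.23) or Myc OE replicate 2 (-0.30) or 3 (-0.25). Becn1, Atg14, Atg3, Atg5, Gabarap, Nbr1, Ctsa and Glb1 were called too and each lost the call without at least 1 of the rescue Cxcl5-/- libraries. Without rescue Cxcl5-/- replicate 1 there were 5 higher genes and without replicate 2 there were 3.

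The overexpression comparisons share the Cxcl5-/- libraries with the rescue genotype comparison, so their values are set side by side and not tested against each other. In the order Cxcl5-/- against WT, Hif1a OE and Myc OE against Cxcl5-/-, Atg13 read 0.92, -0.98 and -0.68 and Atg7 1.03, -0.84 and -0.92. Psap read 0.84, -0.39 and -1.17, and Map1lc3b 0.54, 0.46 and 0.23, the last not called. Sqstm1 read -0.73, 0.51 and 0.69, and Ctsl -0.56, 1.26 and -0.05, the last not called. An error in a Cxcl5-/- library would move the first value and the other 2 in opposite directions.

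**Figure D4:**
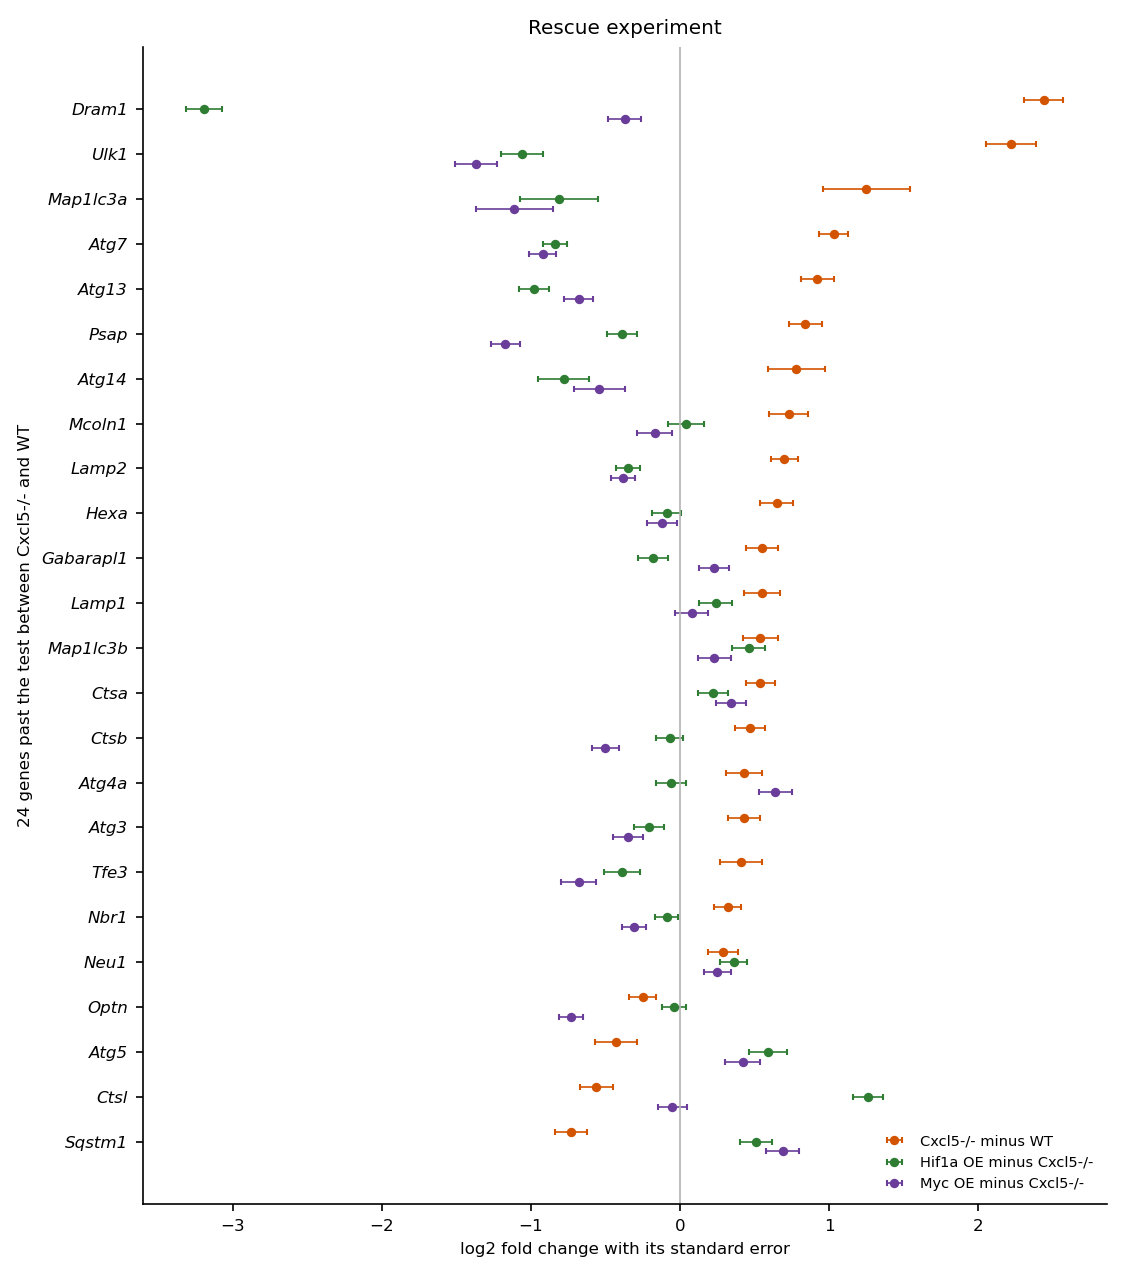
Log2 differences of the 24 genes called between rescue Cxcl5-/- and rescue WT, with those of Hif1a OE and Myc OE against the same Cxcl5-/- libraries, each with its SE. Dram1 reads 2.44, -3.19 and -0.37 in the 3 comparisons, and Ulk1 2.22, -1.06 and -1.37.

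Set directly against Hif1a OE, Myc OE had 7 genes higher and 5 lower, where 9.54% and 9.73% of all genes were, and library totals gave 6 and 13. The ductal markers summed to 268 to 313 CPM in Myc OE against 707 to 839 in Hif1a OE, and the fibroblast markers to 312 to 343 against 133 to 173. Sox9 (23.7 against 16.6 CPM), Dcn (2.1 against 25.2) and Lum (1.58 against 4.52) went against their sums. The part of the markers in the differences was not tested. Dram1 was 2.81 higher on the log2 scale (SE 0.11, adjusted p = 4.36e-08) and Ctsl 1.31 lower, a difference of -1.31 (SE 0.09, adjusted p = 1.95e-06), neither with any overlap. Wipi1 (28.9, 23.4 and 26.6 against 11.4, 15.2 and 12.7 CPM, -1.01, SE 0.13, adjusted p = 2.72e-04), Psap (858, 875 and 792 against 542, 478 and 443 CPM, -0.79, adjusted p = 1.27e-04) and Optn (24.2, 24.4 and 24 against 15.3, 14.9 and 14.9 CPM, -0.69, adjusted p = 7.91e-05) were lower in Myc OE. Npc2 (183, 228 and 180.3 against 376, 339.8 and 304 CPM, 0.79, adjusted p = 4.15e-04) and Atg4a (18.9, 20.2 and 17.4 against 28.9, 31.1 and 32 CPM, 0.71, adjusted p = 2.91e-04) were higher. These 5 genes did not overlap between the groups.

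With edgeR, no gene of the list was called at an adjusted p under 0.05 in any of the 3 comparisons of macrophage-conditioned medium. edgeR called few genes at all: 0.0156% of the 19207 tested were higher in M1-CM than in Ctrl, 0.0156% higher than in M0-CM, and 0% in any other direction. At an unadjusted p under 0.05, M1-CM against Ctrl gave 1 gene higher and 3 lower, where 3.05% and 1.65% of all genes were, M1-CM against M0-CM gave 1 and 2 (1.61% and 0.984% of all genes), and M0-CM against Ctrl 0 and 0 (2.15% and 0.817%). The gene higher was Dram1, at 54.9, 46.5 and 29.5 CPM in M1-CM, 9.8, 16.2 and 11.6 in Ctrl and 10.7, 11.9 and 10.6 in M0-CM. Each M1-CM library lay above all 6 others. The log2 difference was 1.80 against Ctrl (SE 0.26, edgeR adjusted p = 0.0987) and 1.98 against M0-CM (SE 0.26, adjusted p = 0.0761). It passed without M1-CM replicate 3 (2.01, adjusted p = 0.0374, and 2.19, adjusted p = 0.0317), and with DESeq2 the adjusted p-values were 1.59e-07 and 1.84e-09. Of all genes, DESeq2 called 69 higher and 28 lower in M1-CM against Ctrl, and 21 and 11 against M0-CM. The authors, who used DESeq2, list Dram1 as higher in M1-CM than in M0-CM, at 1.98.

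M1-CM replicate 2 stood apart from the other M1-CM libraries for several of the genes. It had 36.1 CPM of Ulk1 against 12.6 and 11.3, 33.4 of Tfe3 against 16.4 and 18.9, and 40.6 of Wipi1 against 23.1 and 24.7. It also had 399 CPM of Ctsd against 855 and 785, 152 of Ctsl against 267 and 324, and 328 of Sqstm1 against 406 and 609. Optn was lower in each M1-CM library (26.2, 17.9 and 24.1 CPM) than in any Ctrl (29.3, 33.9 and 34) or M0-CM library (30.3, 37.2 and 30.9), with log2 differences of -0.51 and -0.53 that did not pass (adjusted p = 0.965 and 0.989). Tfeb, Map1lc3b, Gabarapl1, Lamp1 and Ctsb overlapped between M1-CM and Ctrl, with Lamp1 at 359, 293 and 453 against 420.1, 573 and 551 CPM and Map1lc3b at 111, 109 and 145 against 128, 131 and 148.

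Autophagosome genes and hydrolases were then compared as classes, by their counts and medians and with no test. Over all genes tested, 22.2% rose and 22.0% fell in 3D WT against 2D WT, and 19.7% and 25.3% in 3D Cxcl5-/- against 3D WT. The shares were 17.6% and 24.3% in rescue Cxcl5-/-, 20.5% and 15.0% under Hif1a OE, and 21.6% and 18.0% under Myc OE. In 3D WT against 2D WT, 8 of 18 autophagosome genes rose and 5 fell with a median log2 difference of 0.14, and 4 of 9 hydrolases rose and 2 fell with a median of 0.32. In 3D Cxcl5-/- against 3D WT, 4 autophagosome genes rose and 3 fell (median 0.13), and 6 hydrolases rose and 0 fell (median 0.39). In the rescue experiment the same genotype difference had 9 and 1 autophagosome genes (0.35) and 4 and 1 hydrolases (0.29). The median of the hydrolases minus that of the autophagosome genes was thus 0.27 in 1 3D genotype comparison and -0.05 in the other. Under Hif1a OE, 6 autophagosome genes rose and 6 fell (-0.04), and 4 of these 9 hydrolases rose and 0 fell (0.22). The difference of medians of 0.26 was 0.10 without rescue Cxcl5-/- replicate 1 and 0.37 without replicate 2. It does not extend to the 32 other lysosomal hydrolases described below, of which 3 rose and 16 fell in this comparison (median -0.39). Under Myc OE, 4 rose and 7 fell among the autophagosome genes and 2 rose and 2 fell among the hydrolases, with a median of 0.10 for each class. Within the autophagosome class, 4 of 5 initiation genes rose and 1 fell in 3D WT against 2D WT, and 3 of the 8 membrane-binding and conjugation genes rose and 4 fell, a difference that was not tested. With library totals Ulk1, Atg14 and Atg9a were no longer called.

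**Figure D5:**
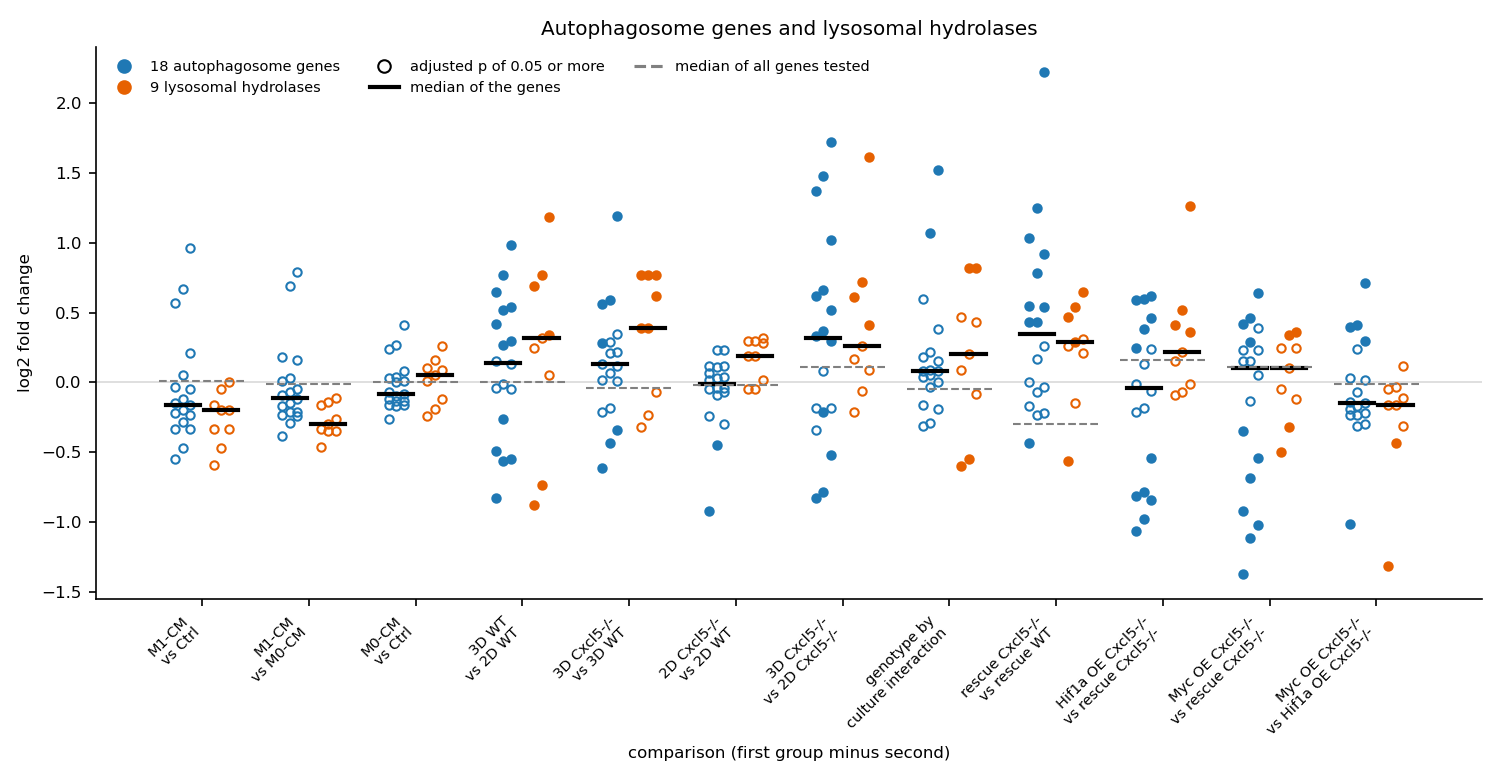
Log2 difference of the 18 autophagosome genes and the 9 hydrolases in each comparison, 1 point per gene (filled when the adjusted p is under 0.05), with a black bar at each class median and a dashed grey line at the median of all genes tested. The hydrolase median lies above the autophagosome median by 0.27 in 3D Cxcl5-/- against 3D WT and below it by 0.05 in the rescue experiment.

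Genes of the wider pathway came from lists drawn up beside the 38. Of 32 other lysosomal hydrolases, 23 rose and 2 fell in 3D WT against 2D WT (median 0.57), where 22.2% and 22.0% of all genes did. In 3D Cxcl5-/- against 3D WT 20 rose and 5 fell (0.49; 19.7% and 25.3% of all genes), and in rescue Cxcl5-/- 23 rose and 1 fell (0.73; 17.6% and 24.3%). Under Hif1a OE 3 rose and 16 fell (-0.39; 20.5% and 15.0%), and under Myc OE 4 rose and 17 fell (-0.30; 21.6% and 18.0%). With library totals, applied to these lists after seeing the data, the hydrolases gave 16 and 3, 23 and 1, 23 and 1, 1 and 20, and 1 and 21 in the same order. Lipa, the lysosomal acid lipase that frees cholesterol and fatty acids, rose from 180.2 ± 13.2 to 519 ± 55.8 CPM (SD, n = 3) in 3D Cxcl5-/- (1.53, SE 0.09, adjusted p = 3.54e-08) and from 151 to 675 in rescue Cxcl5-/- (2.16, adjusted p = 1.02e-07), and fell to 142 under Hif1a OE and 198 under Myc OE.

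Of 27 other autophagy genes, 10 rose and 10 fell in 3D Cxcl5-/- against 3D WT, where 19.7% and 25.3% of all genes did. In rescue Cxcl5-/- 15 rose and 3 fell, where 17.6% and 24.3% of all genes did. Library totals gave 16 and 2 and 14 and 3. Ulk2, a kinase related to Ulk1, went from 52.2 to 116 CPM in rescue Cxcl5-/- (1.15, adjusted p = 1.04e-05). Of 20 further genes for lysosomal membrane and sorting proteins, 11 rose and 3 fell in 3D Cxcl5-/- against 3D WT (19.7% and 25.3% of all genes). In rescue Cxcl5-/- 13 rose and 2 fell (17.6% and 24.3% of all genes). Library totals gave 16 and 2 and 14 and 2. Sort1, the sorting receptor sortilin, rose from 2.3 to 33.3 CPM (3.85, SE 0.23, adjusted p = 3.04e-08) and from 1.24 to 117 in the rescue experiment (6.56, SE 0.27, adjusted p = 5.53e-08).

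Of the 17 vacuolar proton pump genes, 1 rose and 10 fell with 3D culture in WT (median -0.40, 22.2% and 22.0% of all genes). In 3D Cxcl5-/- against 3D WT 9 rose and 3 fell (19.7% and 25.3% of all genes). Library totals gave 0 and 14 and 14 and 0. The mitophagy receptors Bnip3 and Bnip3l, which hypoxia is known to induce, rose with 3D culture, Bnip3 from 78.3 ± 1.25 to 1140 ± 54.8 CPM (3.86, SE 0.12, adjusted p = 6.59e-11) and Bnip3l from 72.7 to 387 (2.41, adjusted p = 5.87e-10). Both were lower in 3D Cxcl5-/-, at 438 CPM (-1.38, adjusted p = 2.79e-07) and 195 CPM (-0.99, adjusted p = 1.47e-06). In the rescue experiment Bnip3 fell from 1027 to 297 CPM (-1.79, adjusted p = 9.27e-07) and stood at 662 under Hif1a OE (1.16, adjusted p = 1.11e-05) and 784 under Myc OE (1.40, adjusted p = 2.19e-06).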

How the data were processed

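Total RNA libraries were made by the authors with a stranded total RNA kit, sequenced on a NovaSeq, aligned with HISAT2 to GRCm38 (mm10 in the submitters' processing notes) and counted per gene with StringTie. Tool versions, annotation release and strand setting are not given in the sources used here. The deposited values are raw counts, whole numbers, in 3 tables. Counts of genes that overlap another gene's exons on the opposite strand (Becn1, Atg14, Atg9a, Map1lc3b, Gabarapl1, Sqstm1, Optn, Lamp1, Ctsa, Ctsb, Ctsl, Ctsz and Hexa) or the same strand (Atg9a, Ctsd, Ctsl and Glb1), and of Atg4a, which has a processed copy, are therefore uncertain.

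Each table was fitted on its own with all its groups in edgeR 4.0.16 (R 4.3.3) by TMM scaling, filterByExpr and the quasi-likelihood F test, with Benjamini-Hochberg adjustment over all genes tested and a threshold of 0.05, as a substitute for the DESeq2 analysis the authors ran. The standard error was the log2 difference over the square root of F. The fit was tested on simulated data. DESeq2 1.42.0, other scalings and filters, the replicate block and fits without 1 library were alternatives. Gene coordinates are those of GENCODE M21 on GRCm38 and promoters those of RefSeq.

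The members and lists were chosen with earlier results of these data known. Any of the 38 genes could be named. Values by sample were given for Tfeb, Tfe3, Ulk1, Map1lc3b, Gabarapl1, Sqstm1, Dram1, Lamp1, Ctsd, Ctsb and Ctsl and for up to 6 genes per comparison with the largest called difference. Overlap between groups was described for named genes only, so it adds no separate support, and its share over all genes was not counted. From the wider lists up to 2 genes per list, direction and comparison with a mean count of at least 50 could be named, with Bnip3 and Bnip3l. Depth sets counting error only: the libraries held 41542533 to 78498230 counts.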

Additional observations from a re-analysis of the deposited data

Results flagged for a closer look

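The genotype difference differed between 3D and 2D culture, by the interaction in edgeR's quasi-likelihood fit, for 8 of the 38 genes, 6 positive and 2 negative, where 11.1% and 16.1% of all genes were, so the count is not particular to these genes. The 3D difference minus the 2D difference was positive for Dram1 (2.06), Map1lc3a (1.52), Ulk1 (1.07), Ctsl (0.82), Gla (0.82) and Mcoln1 (0.39), and negative for Ctsd (-0.60) and Glb1 (-0.55). Map1lc3a, Ctsl, Gla, Ctsd and Glb1 had differences of opposite sign in the 2 cultures. Of these, Map1lc3a alone was called in both cultures, and Ctsd and Glb1 were called in neither. In 2D the mean of Ctsl was 261 CPM in WT and 252 in Cxcl5-/-, and that of Gla 45.5 and 44. The libraries labelled 3D Cxcl5-/- had a higher Cxcl5 transcript level than 3D WT, and the share of this in the differences was not tested.

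Ctsl was higher in 3D Cxcl5-/- than in 3D WT in the culture experiment (0.77) and lower in the rescue experiment (-0.56), with each library of a group on the same side in both. The difference between the experiments was not tested, since the tables were scaled separately.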

How the results depend on the processing

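Of 456 member results, 434 kept their side of the threshold with DESeq2 and 444 with DESeq2 size factors in edgeR. Without a filter 433 did, and with at least 10 counts in each sample 429. Called results also had to keep their direction, which was not compared for results not called. Library totals kept 373 and turned 2 called results, Atg5 in 3D Cxcl5-/- against 3D WT (0.04) and Becn1 in Myc OE against rescue Cxcl5-/- (-0.05). Causes were not tested.

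Counts that moved by over 1.5 times with library totals were 10 higher in 3D WT against 2D WT, 28 higher and 1 lower in 3D Cxcl5-/- against 3D WT, 19 and 0 for the interaction, 6 and 16 for Hif1a OE, 2 higher for Myc OE, and 13 lower for Myc OE against Hif1a OE. DESeq2 gave 1 higher gene, Dram1, for M1-CM against Ctrl and 1 against M0-CM, and 8 lower for Myc OE against Hif1a OE, as did the filter of at least 10 counts, which gave 10 higher for the interaction. Without a filter 0 were lower for the interaction and 2 in rescue Cxcl5-/-. A fit of the 2D groups alone gave 5 higher in 2D Cxcl5-/-.

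Without 1 library at a time, of 2812 member results 168 lost the call and 31 gained it. Of the called results 0 changed direction, which was not compared for the others. Counts ran from 0 to 1 higher for M1-CM against Ctrl and against M0-CM, 3 to 7 lower in 3D Cxcl5-/- against 3D WT (7 without 3D WT replicate 2), 1 to 2 lower in 2D Cxcl5-/-, 3 to 7 lower in 3D against 2D Cxcl5-/-, 0 to 6 lower for the interaction, 2 to 3 lower in rescue Cxcl5-/-, 6 to 12 higher and 6 to 10 lower under Hif1a OE, and 3 to 12 higher under Myc OE. The Hif1a OE difference of class medians ran from 0.10 to 0.37. Where 1 library stayed in a group, it was assumed to vary like the other groups.

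For same-numbered samples, deviations from the group means correlated at 0.037, 0.025 and 0.004 on average in the 3 tables, and not every pair was over 0.1. Ctrl and M0-CM came closest (0.359, 0.246 and 0.071), while pairs with M1-CM ran from -0.236 to 0.157. The numbers were therefore not taken as a pairing. With the replicate block the counts were 19 higher and 9 lower in 3D WT, 15 and 5 in 3D Cxcl5-/-, 0 and 2 in 2D Cxcl5-/-, 22 and 6 in 3D against 2D Cxcl5-/-, 8 and 2 for the interaction, 20 and 3 in rescue Cxcl5-/-, 13 and 9 under Hif1a OE, 13 and 14 under Myc OE, 6 and 6 for Myc OE against Hif1a OE, and 0 for the conditioned media.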

Other observations

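Among 8 mitophagy genes 5 rose and 2 fell with 3D culture in WT (median 0.95, 22.2% and 22.0% of all genes). In 3D Cxcl5-/- against 3D WT 1 rose and 4 fell (19.7% and 25.3% of all genes), and in rescue Cxcl5-/- 1 and 3 (17.6% and 24.3%). Under Hif1a OE 4 rose and 1 fell (0.37, 20.5% and 15.0% of all genes), and under Myc OE 5 and 1 (0.53, 21.6% and 18.0%). Atp6v0a1, a membrane subunit of the proton pump, fell from 55.3 to 26 CPM with 3D culture in WT (-1.09, edgeR adjusted p = 1.62e-05) and stood at 82.9 CPM in 3D Cxcl5-/- (1.67, adjusted p = 4.34e-07), a level above both. Deptor, an inhibitor of the mTOR kinase, rose from 4.3 to 31.1 CPM in rescue Cxcl5-/- (2.85, adjusted p = 2.29e-06). Ctsh, a lysosomal aminopeptidase, went from 1.16 CPM in rescue Cxcl5-/- to 28.2 in Myc OE, a log2 difference of 4.60.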
